A study of Mus musculus with 17 samples.

Results

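The genes described here code for 8 acute phase proteins that inflamed tissue can make locally, Serpina3n, Hp, Saa1, Saa2, Saa3, Lcn2, Lrg1 and Cp. They were chosen by name, partly because Serpina3n, Saa3 and Hp were already known to be higher on day 7 of colitis in these samples. Every day 7 value of the 8 genes is therefore given as a description, without a test or a count of tests passed. A gene was read from probe sets of the array that carry its symbol and no other, and the probe set with the highest mean over all samples stood for it. All 8 genes had such a probe set (16 probe sets in all, 8 of them of Cp and 2 of Saa1), out of 18193 genes on the array.

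Colonic mucosa was profiled on Affymetrix mouse expression arrays before and during colitis induced with 2.5% dextran sodium sulfate (DSS) in the drinking water. DSS is a sulfated polysaccharide that injures the colonic epithelium. CD4cre mice (PPAR γ flfl; CD4 Cre+) carry a recombinase under the CD4 promoter, which removes PPAR γ from CD4+ and CD8+ T cells, and WT mice are Cre-negative. Both are on a C57BL/6J background, and ages are not given in the sources used here. The day 0 groups received no DSS, and the other groups received it for 2 or 7 days. There were 3 samples in each of the 6 groups of genotype and day except WT on day 7, which had 2. The labels do not say whether each array stands for a different mouse, so the p-values measure only the spread between these samples.

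The acute phase response is the change in secreted proteins that follows infection or tissue injury. The liver is its main source, where IL-6 acting through STAT3 and IL-1 acting through NF-κB and the C/EBP factors switch on genes such as those of serum amyloid A. Epithelium, macrophages, fibroblasts and neutrophils make many of the same proteins at the site of injury. In the colon, serum amyloid A and lipocalin 2 are widely used as signs of intestinal inflammation.

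All values are gcRMA values on the log2 scale, where a difference of 1 is a doubling. A level of 3.54, the 95th percentile of 68 probe sets of genes of retina, testis and lens, was taken as background, and a group mean at or below it has only a lower bound for a fold against it. All 14 markers of colonic epithelium measured were above background in every sample, and 9 of 12 hepatocyte markers were at background in every sample, among them Alb at 2.43 to 2.90. Pparg itself, measured in whole mucosa in which T cells are a small part, passed no limma test between genotypes. The log2 difference was -0.59 on day 0 (95% interval -1.75 to 0.57, adjusted p = 0.967). It was 0.72 on day 2 (-0.44 to 1.88, adjusted p = 0.821), with CD4cre above WT without overlap, and -0.63 on day 7 (-1.92 to 0.67, adjusted p = 0.749). The array therefore does not check the deletion. The samples differed in 2 other ways that cross the groups. Hoxd10, a Hox gene whose level differs along the length of the gut, was above background in 7 samples (WT day 0 replicates 1 and 3, both WT day 7 samples, CD4cre day 0 replicate 3 and CD4cre day 7 replicates 1 and 3) and at background in the other 10, in which Hoxb13, a marker of the distal colon, was at 6.60 to 11.54. All 6 day 2 samples were of the latter kind. Pancreatic enzyme transcripts were high in WT day 2 replicate 2, CD4cre day 0 replicate 2 and CD4cre day 2 replicate 1.

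The serum amyloid A genes lie side by side on mouse chromosome 7, and their promoters show how near the copies are to each other and where the factors of the acute phase response could bind. RefSeq (GRCm38.p6) gave a start site for 7 of the 8 genes. The windows of 250 bases before the start are shown for the 4 of them with a single start that hold a match to the C/EBP motif, 5′ to 3′ on the gene's own strand, with the match in capitals. They are chr7:46742981-46743230 on the minus strand for Saa1, chr7:46751583-46751832 on the plus strand for Saa2, chr7:46715677-46715926 on the minus strand for Saa3 and chr2:32387740-32387989 on the minus strand for Lcn2.
Saa1: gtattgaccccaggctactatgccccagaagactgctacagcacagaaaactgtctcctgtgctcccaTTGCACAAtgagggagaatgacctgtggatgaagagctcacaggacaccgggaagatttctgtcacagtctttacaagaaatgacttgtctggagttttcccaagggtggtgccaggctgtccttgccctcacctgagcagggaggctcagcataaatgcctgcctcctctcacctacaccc
Saa2: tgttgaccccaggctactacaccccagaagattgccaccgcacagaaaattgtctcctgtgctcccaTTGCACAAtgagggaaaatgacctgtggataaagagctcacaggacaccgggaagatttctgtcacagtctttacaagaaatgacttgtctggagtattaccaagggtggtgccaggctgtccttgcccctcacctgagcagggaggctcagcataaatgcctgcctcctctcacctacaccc
Saa3: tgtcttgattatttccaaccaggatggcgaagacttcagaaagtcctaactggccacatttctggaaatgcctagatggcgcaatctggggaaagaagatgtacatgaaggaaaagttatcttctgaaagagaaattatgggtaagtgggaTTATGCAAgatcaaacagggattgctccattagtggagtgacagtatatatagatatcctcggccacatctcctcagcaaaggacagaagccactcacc
Lcn2: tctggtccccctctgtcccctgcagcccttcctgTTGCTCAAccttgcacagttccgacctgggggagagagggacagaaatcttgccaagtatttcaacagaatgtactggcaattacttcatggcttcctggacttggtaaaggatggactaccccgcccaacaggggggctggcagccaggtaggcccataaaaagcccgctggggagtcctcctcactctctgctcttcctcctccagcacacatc

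The windows of Saa1 and Saa2, whose starts are 8853 bases apart, were identical in 238 of 251 aligned columns (94.8%). The Saa3 window, with its start 27304 bases from that of Saa1, was identical to the Saa1 window in 50.2% of aligned columns and to the Saa2 window in 50.6%. The motif searched was TTGCNNAA on both strands. It starts 182 bases before the Saa1 start, 183 before that of Saa2, 99 before that of Saa3 and 216 before that of Lcn2, and also 70 bases before the second of 2 starts of Cp. In total 5 of the 8 windows of these genes held it (Cp has 2 windows, which overlap), where 9.56% of the 32851 windows of the same length in the table did. A STAT motif, TTCNNNGAA, was in none of the 8 windows (7.02% of all windows hold it), and neither was the κB motif of NF-κB (3.86%). The windows of Serpina3n, Lrg1 and the first start of Cp held none of the 3 motifs. No matched motif overlapped another. A match is a run of letters and not a measured site, and its absence from this window says nothing of binding elsewhere.

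Serum amyloid A proteins are small lipid-binding proteins of the acute phase, and Saa3 is the form made mainly outside the liver, by macrophages, epithelium and fat. Saa3 was at 7.73, 6.97 and 10.91 in the WT samples on day 0, at 4.84, 5.63 and 6.29 on day 2 and at 11.32 and 10.28 on day 7. In CD4cre mice it was at 4.99, 5.57 and 7.74 on day 0, at 4.73, 6.25 and 7.69 on day 2 and at 13.90, 14.95 and 12.77 on day 7. The 3 CD4cre samples on day 7 lay above all 14 others, and the day 0 samples of WT mice spread widely, with 1 of them within the range of WT day 7. Against day 0, the mean on day 7 was higher by 7.77 ± 1.09 (SE) in CD4cre mice, a 218-fold difference, and by 2.26 ± 1.22 in WT mice, where the groups overlapped. The latter was 3.45 without WT day 0 replicate 3 and 1.48 without replicate 2.

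Outside CD4cre day 7 the Saa3 values also ordered with the Hox pattern, since the samples with Hoxd10 above background were at 7.73 or higher and those with Hoxd10 at background at 7.69 or lower. Between samples of the same Hox pattern the day 7 minus day 0 difference was 5.59 (2 samples against 1) or 9.67 (1 against 2) in CD4cre mice and 1.48 (2 against 2) in WT mice, and on day 7 CD4cre was 2.53 above WT (2 against 2). The part of position in the Saa3 values was described only by these comparisons, with 1 or 2 samples on each side, and by the Hox covariates. It was not tested.

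**Figure D1:**
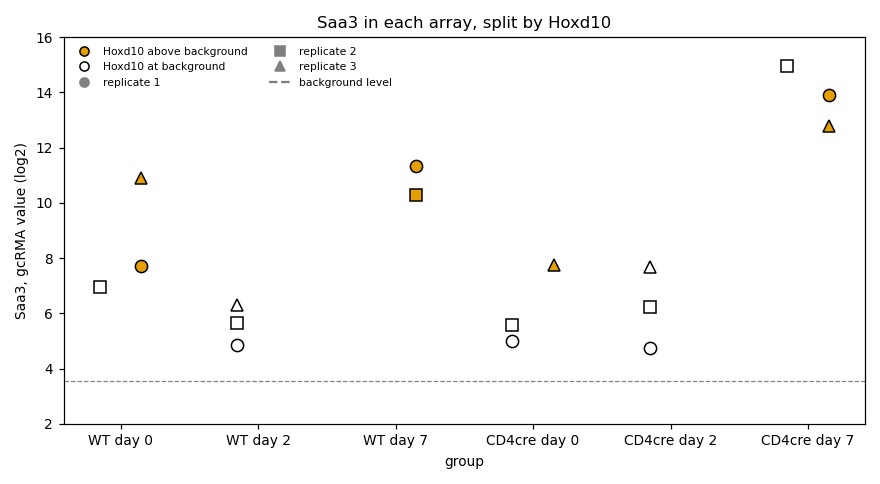
Saa3 gcRMA value (log2, vertical axis) of every sample (17 in all), grouped by genotype and day, with orange symbols for samples with Hoxd10 above background and white symbols for samples with Hoxd10 at background. The 3 CD4cre day 7 samples, at 12.77 to 14.95, lie above all others whichever the Hox pattern, and all day 2 samples have Hoxd10 at background.

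Saa1 and Saa2 are the forms that the liver secretes into the blood and that the intestinal epithelium also makes. Saa1 was at 13.01, 13.60 and 13.60 in WT mice on day 0, at 14.06, 14.28 and 14.01 on day 2 and at 12.73 and 12.67 on day 7. The CD4cre samples were at 13.36, 13.02 and 13.04 on day 0, at 13.58, 12.89 and 12.83 on day 2 and at 13.87, 15.10 and 12.80 on day 7. Saa1 was far above background before DSS, and CD4cre day 7 overlapped CD4cre day 0.

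Saa2 was at 8.91, 9.38 and 9.59 in WT mice on day 0, at 9.72, 9.87 and 9.55 on day 2 and at 8.50 and 8.29 on day 7. CD4cre mice had it at 9.31, 8.99 and 8.96 on day 0, at 9.31, 8.51 and 8.97 on day 2 and at 9.46, 10.28 and 8.74 on day 7. For both genes WT day 2 had the highest mean and WT day 7 the lowest. The day 7 minus day 0 difference was -0.71 ± 0.48 for Saa1 and -0.90 ± 0.36 for Saa2 in WT mice, without overlap, and 0.78 ± 0.43 and 0.40 ± 0.33 in CD4cre mice, with overlap. Without CD4cre day 7 replicate 2 the latter were 0.20 and 0.01, and without replicate 3 they were 1.35 and 0.78. The probe set standing for Saa1 was designed on a transcript that RefSeq gives to Saa2, and it correlated with the Saa2 probe set (r = 0.95 over 17 samples) and with the other Saa1 probe set (r = 0.99), so the 2 genes cannot be told apart here.

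Serpina3n is a secreted inhibitor of serine proteases and a mouse counterpart of human antichymotrypsin. It was at 5.89, 7.03 and 6.29 in WT mice on day 0, at 7.42, 8.86 and 7.53 on day 2 and at 9.78 and 9.80 on day 7. In CD4cre mice it was at 7.35, 6.53 and 6.76 on day 0, at 6.81, 7.81 and 7.37 on day 2 and at 11.57, 12.24 and 11.16 on day 7. In WT mice the 3 days did not overlap, with day 2 between day 0 and day 7. In CD4cre mice days 0 and 2 overlapped and day 7 lay above both. The day 7 minus day 0 difference was 3.38 ± 0.49 (10.4-fold) in WT mice and 4.78 ± 0.44 (27.5-fold) in CD4cre mice.

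Haptoglobin, lipocalin 2 and ceruloplasmin act on haem iron, bacterial siderophores and copper with iron, respectively. Haptoglobin (Hp) binds free haemoglobin, and the complex is taken up through CD163. Hp was at 2.51, 3.33 and 2.90 in WT mice on day 0, at 2.73, 2.45 and 2.50 on day 2 and at 4.64 and 3.88 on day 7. The CD4cre samples were at 2.75, 2.76 and 2.45 on day 0, at 2.20, 2.42 and 2.89 on day 2 and at 8.04, 10.20 and 9.78 on day 7. All 12 samples of days 0 and 2 were at background, both WT day 7 samples were above it and the CD4cre day 7 samples were far above these. From day 0 to day 7 the difference in means was at least 55.9-fold in CD4cre mice (log2 difference of 6.69 ± 0.45) and at least 1.65-fold in WT mice (1.34 ± 0.50).

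Lipocalin 2 (Lcn2) binds iron-loaded bacterial siderophores. It was at 3.99, 3.46 and 4.20 in WT mice on day 0, at 4.09, 5.07 and 4.71 on day 2 and at 4.64 and 4.86 on day 7. CD4cre mice had it at 4.03, 3.96 and 3.92 on day 0, at 3.98, 4.06 and 4.08 on day 2 and at 9.01, 10.03 and 5.65 on day 7. All 3 CD4cre day 7 samples were above the other 14, but replicate 3 was far below the other two, a range of 4.38, the widest of the 8 genes in that group. The CD4cre day 7 minus day 0 difference of 4.26 ± 0.80 was 5.55 without that sample and 3.36 without replicate 2. That standard error uses a spread shared by all 6 groups. It understates the spread of CD4cre day 7, where the standard deviation was 2.29. In WT mice it was 0.87 ± 0.89.

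Ceruloplasmin (Cp) is a copper-carrying ferroxidase that helps iron leave cells through ferroportin. It was at 6.06, 6.31 and 6.40 in WT mice on day 0, at 7.01, 6.62 and 6.85 on day 2 and at 7.04 and 7.26 on day 7. In CD4cre mice it was at 5.20, 6.33 and 6.28 on day 0, at 6.50, 6.35 and 7.02 on day 2 and at 8.34, 10.60 and 7.96 on day 7. WT days 0, 2 and 7 did not overlap, and CD4cre day 7 lay above all other samples. The day 7 minus day 0 difference was 3.03 ± 0.55 in CD4cre mice and 0.90 ± 0.61 in WT mice. Of the 8 Cp probe sets, all 8 were higher in CD4cre mice on day 7 than on day 0, by 0.17 to 3.59, and 6 did so without overlap.

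Lrg1 codes for a secreted leucine-rich glycoprotein that modifies TGF-β signalling in vessels and is stored by neutrophils. It was at 3.58, 3.20 and 3.87 in WT mice on day 0, at 3.82, 4.79 and 3.82 on day 2 and at 5.09 and 5.16 on day 7. The CD4cre samples were at 3.34, 3.49 and 3.67 on day 0, at 3.81, 3.82 and 3.84 on day 2 and at 7.92, 8.64 and 7.45 on day 7. Both day 7 groups lay above every earlier sample, CD4cre above WT. In CD4cre mice the day 7 mean exceeded that of day 0 by at least 22.1-fold (log2 difference of 4.50 ± 0.30), and the difference in WT mice was 1.58 ± 0.34.

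Ordered by their means, the groups began with CD4cre day 7 and then WT day 7, without overlap, for Serpina3n, Hp, Saa3, Lcn2, Lrg1 and Cp. WT day 7 lay above the next group without overlap for Serpina3n, Hp, Lrg1 and Cp and overlapped it for Saa3 and Lcn2. The groups below that overlapped their neighbours for each of these genes, except that WT day 2 lay above CD4cre day 2 for Lcn2. For Saa1 and Saa2 all neighbours overlapped except WT day 7, which lay below CD4cre day 2.

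**Figure D2:**
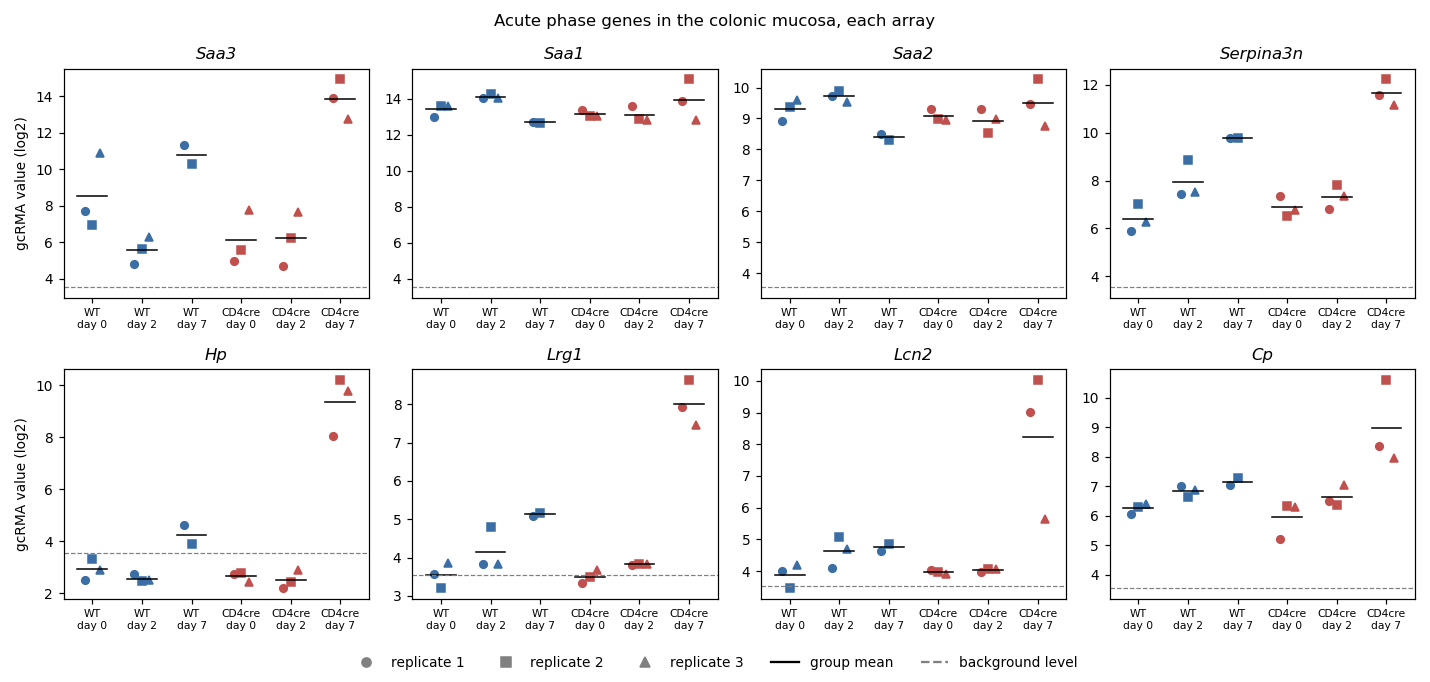
gcRMA value (log2, vertical axis, with its own range in each panel) of the 8 genes, sample by sample in the 6 groups, with blue symbols for WT, red for CD4cre, symbol shape for the replicate, a black line for the group mean and a dashed line for the background level of 3.54. CD4cre day 7 stands above all other groups for Serpina3n, Hp, Saa3, Lcn2, Lrg1 and Cp and overlaps others for Saa1 and Saa2.

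Whether 2 days of DSS changed these genes was tested with limma over all 45037 probe sets. The standard errors use a spread shared by all 6 groups, CD4cre day 7 included, also where that group is not compared. For Lcn2 the standard deviation was 2.29 in CD4cre day 7 and 0.053 to 0.50 in the other groups. For Cp it was 1.43 there and 0.16 to 0.64 in the others. For Hp it was 1.15 there and 0.15 to 0.54 in the others. A day 2 difference that did not pass is therefore not shown to be absent. Conversely, the standard errors given for differences with CD4cre day 7 understate the spread of that group for Lcn2, Cp and Hp. In WT mice 0 of the 8 passed an adjusted p under 0.05 on day 2, where 0.449% of all probe sets did, and 2 (Serpina3n and Saa3) had an unadjusted p under 0.05, as had 4323 probe sets. Serpina3n was 1.53 ± 0.44 above day 0 (95% interval 0.58 to 2.49, adjusted p = 0.186), without overlap. Saa3 was 2.95 ± 1.09 below it, without overlap (interval of the difference -5.33 to -0.56, adjusted p = 0.360). This rested in part on WT day 0 replicate 3, without which the Saa3 difference was -1.76, and between samples with Hoxd10 at background it was -1.38 (3 against 1). Saa1 was 0.71 ± 0.43 above day 0 (interval -0.23 to 1.66, adjusted p = 0.703), Lrg1 0.59 ± 0.30 (adjusted p = 0.601), Cp 0.57 ± 0.55, Lcn2 0.74 ± 0.80, Saa2 0.42 ± 0.33 and Hp -0.35 ± 0.45. With a Hox position score (the mean level of 6 Hox genes of the distal groups minus that of 9 of the lower groups) as a covariate the differences of Saa1, Saa2, Lcn2 and Cp were -0.48, -0.41, -0.37 and -0.19, and those of Serpina3n, Lrg1 and Saa3 were 0.77, 0.40 and -1.28. That score ran from 1.27 to 1.81 in WT day 2 and from -1.34 to 0.09 in WT day 0, without overlap. These adjusted values are therefore extrapolations, and position and DSS cannot be told apart in this comparison. Without the sample with pancreatic transcripts, Serpina3n was 1.07 above day 0 and Lrg1 0.27. With array quality weights 4 of the 8 passed (Serpina3n, Saa1, Saa2 and Saa3). Those weights rested day 0 largely on WT day 0 replicate 1 (weight of 16.6). The share of all probe sets passing under them was not counted, so nothing is read from this count. Of the 8, 3 (Serpina3n, Saa1, Cp) were higher and 1 (Saa3) lower without overlap, where 6.59% and 10.2% of all probe sets were. The median of the 8 was 0.58, against -0.02 over all genes.

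In CD4cre mice the day 2 differences ran from -0.16 (Saa2) to 0.69 (Cp), with a median of 0.09 against -0.02 over all genes. None of the 8 passed the limma test or had an unadjusted p under 0.05, where 0.0178% of all probe sets passed and 2981 had such a p. Serpina3n was 0.45 ± 0.44 above day 0 (interval -0.50 to 1.41, adjusted p = 0.755) and Cp 0.69 ± 0.55 (interval -0.50 to 1.88, adjusted p = 0.754). Cp and Lrg1 were higher without overlap (2 of 8, where 5.23% of all probe sets were), Lrg1 by 0.32 ± 0.30. For Saa3 the interval of -2.26 to 2.50 allows large changes either way.

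The difference between the 2 genotypes' day 2 changes was also tested. None of the 8 passed, by adjusted or unadjusted p, where 0.00222% of all probe sets passed and 1926 had an unadjusted p under 0.05. The CD4cre change minus the WT change was -1.08 ± 0.62 for Serpina3n (interval -2.43 to 0.27, adjusted p = 1.00) and 3.07 ± 1.55 for Saa3 (interval -0.30 to 6.44, adjusted p = 1.00).

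Whether T cells without PPAR γ went with another level of these genes before DSS or on day 2 was tested between genotypes. On day 0, 0 of 8 passed, where 0.00666% of all probe sets did, and only Saa3 had an unadjusted p under 0.05, as had 2035 probe sets. It was 2.44 ± 1.09 below WT (interval of the difference -4.82 to -0.05, adjusted p = 0.967), with overlap. Without WT day 0 replicate 3 this difference was -1.25. With array quality weights Saa3 and Serpina3n passed, 2 of 8, in the fit that weighted WT day 0 replicate 1 at 16.6. The share of all probe sets passing in that fit was not counted. The 7 genes other than Saa3 differed by -0.31 (Cp) to 0.48 (Serpina3n). On day 2, 0 of 8 passed, where 0.0422% did, and 2 had an unadjusted p under 0.05, as had 3302 probe sets. These were Saa1, 1.02 ± 0.43 lower in CD4cre mice (interval of the difference -1.96 to -0.08, adjusted p = 0.637), and Saa2, 0.78 ± 0.33 lower (interval -1.49 to -0.07, adjusted p = 0.627), which cannot be told apart. With Lcn2, which was 0.59 ± 0.80 lower, these 3 of 8 were lower without overlap, where 6.38% of all probe sets were. All 6 samples of this comparison had Hoxd10 at background, but the Hox position score ran from 1.27 to 1.81 in the WT samples and from -0.25 to 0.84 in the CD4cre samples, without overlap. With that score as a covariate the differences were -0.35 for Saa1, -0.32 for Saa2 and 0.033 for Lcn2. Across the 8, the median was -0.23 on day 0 and -0.45 on day 2, against -0.01 over all genes on both days.

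On day 7 in WT mice the 8 genes had a median difference from day 0 of 1.12, with Serpina3n at the top and Saa2 at the bottom. Of them 5 were higher without overlap, where 10.1% of all probe sets were, and 2 (Saa1 and Saa2) were lower without overlap, where 35.8% were. With 2 samples in WT day 7, groups without overlap were common among all probe sets. In CD4cre mice the median was 4.38. Here 6 of 8, all but Saa1 and Saa2, were higher without overlap, where 8.63% of all probe sets were. Since the genes were chosen on these contrasts, nothing is read from the counts.

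**Figure D3:**
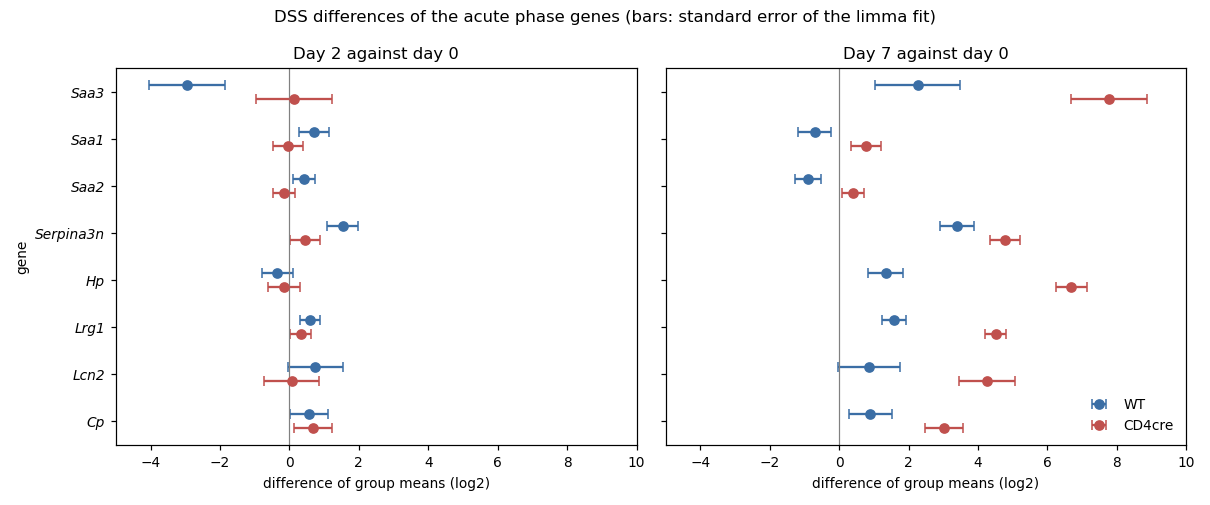
Log2 difference from day 0 of the 8 genes (points) with its standard error (bars) on day 2 and on day 7 of DSS, in WT mice (blue) and CD4cre mice (red). On day 2 the differences lie between -2.95 and 1.53, and on day 7 the CD4cre points of 6 genes lie between 3.03 and 7.77 while those of Saa1 and Saa2 are at 0.78 and 0.40.

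Between genotypes on day 7, CD4cre was higher for all 8 genes without overlap, where 10.3% of all probe sets were. The difference was 5.08 ± 0.50 for Hp, 3.48 ± 0.89 for Lcn2, 3.07 ± 1.22 for Saa3, 2.87 ± 0.34 for Lrg1, 1.87 ± 0.49 for Serpina3n, 1.82 ± 0.61 for Cp, 1.23 ± 0.48 for Saa1 and 1.10 ± 0.36 for Saa2. Without CD4cre day 7 replicate 2 it was 1.00 for Cp, 0.64 for Saa1 and 0.70 for Saa2. The CD4cre change from day 0 minus the WT change was 5.51 ± 1.64 for Saa3, 5.34 ± 0.68 for Hp (5.08 with values raised to the background level), 3.39 ± 1.20 for Lcn2 and 2.92 ± 0.45 for Lrg1. It was 2.13 ± 0.82 for Cp, 1.49 ± 0.65 for Saa1, 1.40 ± 0.66 for Serpina3n and 1.30 ± 0.49 for Saa2. Without the same sample it was 1.31 for Cp and 0.90 for Saa1. For Saa1 and Saa2, the WT mean was lower and the CD4cre mean higher on day 7 than on day 0. These are descriptions of the contrasts that chose the genes.

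Within CD4cre day 7 the samples kept nearly the same order. Replicate 2 had the highest value of all 8 genes, replicate 3 the lowest of 7, and replicate 1 the lowest of Hp. The range over the 3 samples was smallest for Serpina3n (1.08) and Lrg1 (1.19) and between 1.53 and 4.38 for the others. Replicate 2 is also the sample of this group with Hoxd10 at background. Without it the CD4cre day 7 minus day 0 difference was 7.24 for Saa3, 6.26 for Hp, 4.49 for Serpina3n, 4.19 for Lrg1 and 2.21 for Cp.

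The 6 genes other than Saa1 and Saa2 correlated with each other at r = 0.77 to 0.95 over the 17 samples (15 pairs), which share the CD4cre day 7 samples. With the group means removed, the same pairs gave -0.16 to 0.75. Saa1 and Saa2 gave r = 0.95 with each other, and 0.03 to 0.58 with the other 6 genes. With the group means removed these were 0.94 and 0.18 to 0.81, the highest of them for Saa1 with Lcn2. Likeness to genes outside the list was taken to the mean of the standardized values of the 8, among 11720 genes above background in at least 1 group. That mean was 0.76 to 2.39 in CD4cre day 7 and 0.16 or lower elsewhere. A high r therefore largely restates a high CD4cre day 7, the group that chose the genes, and nothing more is read from it. The most alike over these 17 samples were Sting1, Cebpb, Chrdl2, Abcc9, Ifitm6 and Laptm5 (r = 0.97), then Mmp10, Myo1f, Slc10a6 and Csf2rb2 (r = 0.96). For single genes, the most alike were S100a8 for Hp (r = 0.98), Adamts4 and Socs3 for Lrg1 (0.98), Emb for Lcn2 (0.98), Mmp3 for Serpina3n (0.97), Rab8b for Cp (0.95) and Ctla2a for Saa3 (0.94). Saa1 and Saa2 had less like partners, Ogfrl1 (0.84) and Pam (0.80).

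The cytokines that induce acute phase genes were followed in a list of 14, of which 11 were measured. On day 7 in CD4cre mice 3 rose and none fell, where 3.50% of all probe sets rose and 3.24% fell, and in WT mice none passed, where 0.0755% rose. Il6, the main inducer in the liver, was at 2.10 to 2.17 in the 14 samples outside CD4cre day 7, all at background, and at 8.42, 9.85 and 8.01 there. Against day 0 this was a rise of at least 37.3-fold (log2 difference of 6.62 ± 0.32, adjusted p = 4.00e-06). The spread shared by all groups is narrow for Il6 because those 14 samples are at background. This standard error and the p-values of Il6 therefore overstate the precision of the CD4cre day 7 mean. Il1b, which drives NF-κB and C/EBP factors, rose by 6.67 ± 0.76 (adjusted p = 0.000843), and Il11, a cytokine of the IL-6 family, by at least 17.05-fold (adjusted p = 0.0122). In WT mice on day 7, Il6 differed from day 0 by -0.01 and Il1b by 2.17 (adjusted p = 0.488). The difference of the day 7 changes passed for Il6 (adjusted p = 0.000145), where 0.0444% of all probe sets passed upward, and not for Il1b (0.155).

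Their receptors were 14 genes, 13 measured, of which 8 rose and none fell in CD4cre mice on day 7, with a median of 1.00 against -0.03 over all genes. Of all probe sets, 3.50% rose and 3.24% fell there. Osmr, the receptor chain for oncostatin M, rose by 2.66 ± 0.38 (adjusted p = 0.00258) and Il1r1, the IL-1 receptor, by 2.06 ± 0.24 (adjusted p = 0.000972). Il6st, the signalling chain shared by the IL-6 family, rose by 1.49 ± 0.31 (adjusted p = 0.0154) and Il6ra by 1.16 ± 0.29 (adjusted p = 0.0377). None passed in WT mice on either day or in CD4cre mice on day 2.

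Of 21 measured factors and regulators that act on acute phase genes (24 listed), 6 rose and none fell in CD4cre mice on day 7. The shares of all probe sets were 3.50% and 3.24%. Socs3, a feedback inhibitor that STAT3 induces, rose by 4.74 ± 0.57 (adjusted p = 0.00106), Cebpd by 3.10 ± 0.40 (adjusted p = 0.00161), Cebpb by 2.59 ± 0.38 (adjusted p = 0.00286) and Stat3 by 1.53 ± 0.19 (adjusted p = 0.00130). Bcl3 rose by 1.31 and Rela by 0.73, and Nfkbiz, at 1.33 ± 0.50, did not pass (adjusted p = 0.139). The only factor past the threshold on day 2 was Cebpd in WT mice, which was higher by 2.11 (adjusted p = 0.0498), at the edge of the test. All WT day 2 samples had Hoxd10 at background and WT day 0 replicates 1 and 3 had it above, so position and DSS cannot be told apart there. In CD4cre mice on day 2 Cebpd differed by 0.30 (adjusted p = 0.811).

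**Figure D4:**
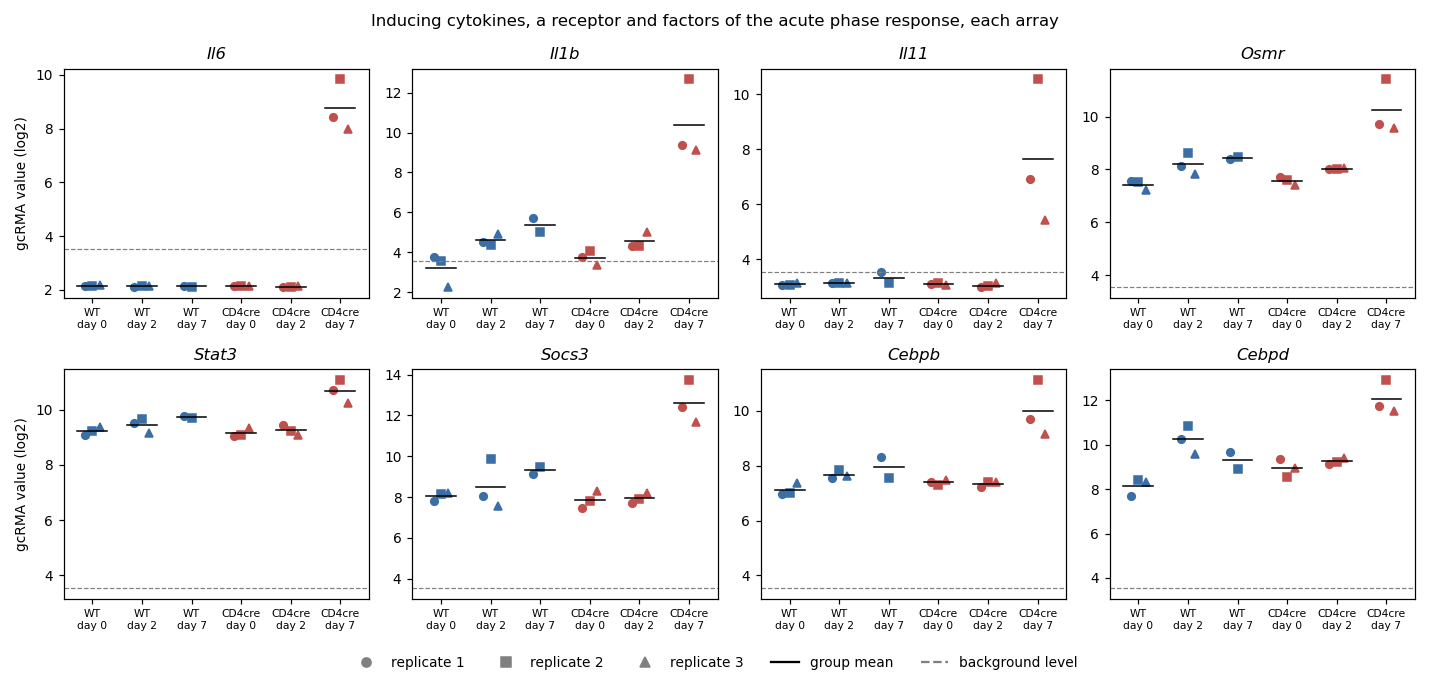
gcRMA value (log2, vertical axis, with its own range in each panel) of 3 inducing cytokines, the receptor chain Osmr and 4 factors or regulators in each sample, with blue symbols for WT, red for CD4cre, symbol shape for the replicate, a black line for the group mean and a dashed line for the background level. Il6 is at background in the 14 samples outside CD4cre day 7, and Cebpd is higher in WT on day 2 than on day 0.

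Other genes that acute phase responses raise moved in part. Of 36 listed, 29 were measured, 6 rose and none fell in CD4cre mice on day 7, and the median of the list was -0.01, against -0.03 over all genes. Among all probe sets 3.50% rose and 3.24% fell. Those that rose were Timp1, an inhibitor of metalloproteases (at least 32.2-fold, adjusted p = 0.000758), the pentraxin Ptx3 (at least 16.6-fold, adjusted p = 0.00549), Lbp, which hands bacterial lipopolysaccharide to CD14 (at least 9.62-fold, adjusted p = 0.000702), the metal reductase Steap4 (2.95, adjusted p = 0.000723), Cd14 (1.62, adjusted p = 0.0421) and Serping1 (1.07, adjusted p = 0.0149). Cfb differed by 0.64 (adjusted p = 0.0729). The fibrinogen genes Fga, Fgb and Fgg, Hpx, Orm2, Orm3, Apcs, Crp, Itih4, Saa4, Hamp and Fgl1 were at background in every sample. Of 8 measured genes that acute phase responses lower (9 listed), Rbp4, the carrier of retinol, fell by 1.63 (adjusted p = 0.0147) and the others did not pass. C3 and Il22 were not analysed here.

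Receptors and partners of the 8 proteins were 26 genes, 24 measured, of which 5 rose and none fell in CD4cre mice on day 7, with a median of 0.29 against -0.03 over all genes. Of all probe sets, 3.50% rose and 3.24% fell there. Cd163, the receptor for haptoglobin bound to haemoglobin, rose by 2.56 ± 0.33 (adjusted p = 0.00144), Hmox1, which breaks down haem, by 1.95 ± 0.52 (adjusted p = 0.0464) and Lrp1, a receptor for protease complexes, by 1.53 ± 0.30 (adjusted p = 0.0124). Fpr2, a receptor that serum amyloid A can engage, was higher by at least 4.95-fold (adjusted p = 0.0435), and Gzmb, a protease that Serpina3n inhibits, rose by 1.66 ± 0.36 (adjusted p = 0.0193). Slc22a17, a proposed receptor for lipocalin 2, differed by -0.03 (adjusted p = 0.906) and Slc40a1, the iron exporter ferroportin, by 1.40 ± 0.54 (adjusted p = 0.155).

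Markers of some other cells moved with the values and those of others did not. In bulk samples a change in the number of cells of a type and a change in RNA per cell cannot be told apart. Beside the counts below, 3.50% of all probe sets rose and 3.24% fell in CD4cre mice on day 7, and 0.449% passed in WT mice on day 2. Of 17 macrophage markers measured (18 listed), 16 rose in CD4cre mice on day 7, and the list's summed level was 14.43 to 14.70 in the day 0 groups, 14.63 to 15.53 on day 2, 15.02 to 15.11 in WT on day 7 and 15.63 to 16.28 in CD4cre on day 7. Of 12 neutrophil markers measured (17 listed), S100a8, S100a9 and Clec4d rose, and the summed level was 6.14 to 6.29 on days 0 and 2, 7.23 to 7.52 in WT on day 7 and 10.39 to 13.06 in CD4cre on day 7. The defining granule genes Mpo, Elane, Camp, Ngp, Ltf and Mmp8, and Cxcr2, were at background in every sample. Of 10 fibroblast markers 6 rose, with a summed level of 15.96 to 16.95 in CD4cre on day 7 and 15.01 to 15.68 in the other groups. No marker of T cells passed (8 measured of 9). In CD4cre mice on day 7, 0 of 14 markers of colonic epithelium rose and 1 fell, with a median difference of 0.07. Of 8 adipocyte markers measured (10 listed), 0 rose and 1 fell. None of 8 smooth muscle markers passed, and 1 of 8 endothelial markers rose. On day 2 in WT mice, 2 of 6 B cell markers measured (7 listed) rose, Cd79b by 2.62 and Ms4a1 by 2.71, with a summed level of 7.58 to 7.94 against 5.47 to 5.86 on day 0. No macrophage marker passed there, but 9 of 17 had an unadjusted p under 0.05. The Hox pattern also differed between WT days 0 and 2, so position and DSS cannot be told apart for these markers. The part of these cells in the values of the 8 genes was not tested. The macrophage list shares Cd14 and Cd163 with the lists above. Tat, an enzyme of tyrosine breakdown that was at 6.09 to 8.04 in all samples, was the 1 of 12 hepatocyte markers that rose (by 1.28, adjusted p = 0.00651).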

How the data were processed

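The authors hybridised RNA of colonic mucosa to Affymetrix mouse arrays and processed the 17 arrays with gcRMA in R 2.9.0, which adjusts background, normalizes the arrays together and summarizes each probe set. The deposited values are on the log2 scale, 1 column per sample, and the submitters' processing notes also name limma. A genome build is not given in the sources used here. The table holds 45101 probe sets, of which 64 controls were left out and 45037 tested. By the platform annotation 34945 carry 1 gene, 932 several and 9160 none. Array values carry no read depth, so the number of arrays limits the precision.

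Samples were grouped by genotype and day from their labels, and no 2 arrays were duplicates (correlations between replicates were 0.978 to 0.997). The test was limma (3.58.1, R 4.3.3), with a mean for each of the 6 groups and all 17 samples in a single fit (11 residual and 0.888 prior degrees of freedom), for 9 comparisons. Tests were two-sided, with Benjamini-Hochberg adjustment over all probe sets within each comparison and a threshold of 0.05. For genes at background in most groups, the shared spread can be too narrow for CD4cre day 7. The script was tested on simulated data. The 8 genes, the lists of other genes and the rules were chosen with earlier results of these data known. All 8 genes are named with every value. From other lists, at most 6 genes past the threshold with the largest differences in CD4cre mice on day 7 are named, along with genes fixed by name. Likeness is Pearson's r over 17 samples. Promoters are RefSeq's. Motif search and figures used Python 3.11.15 and matplotlib 3.10.9. Alternatives were other normalizations, fits, filters, covariates and left-out samples.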

Additional observations from a re-analysis of the deposited data

Results flagged for a closer look

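The change from day 0 to day 7 differed between the genotypes, by the limma interaction term, for Il6 and S100a9 among 131 genes of the lists on inducers, receptors, factors, partners, other acute phase genes, neutrophils and macrophages. The CD4cre change minus the WT change was 6.63 for Il6 (5.22 with group means raised to the background level, adjusted p = 0.000145) and 4.88 for S100a9 (4.86 in the same way, adjusted p = 0.0318) on the log2 scale. Il6 was at background in every sample outside CD4cre day 7, which narrows the shared spread, so its p overstates the precision. The group means of S100a9 were also at background on days 0 and 2. The lists were chosen with earlier results of these data known. The 8 genes themselves were not looked at in this way, since the day 7 contrasts chose them. The groups held at most 3 samples, too few to look for samples standing apart within a group.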

How the results depend on the processing

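Counts of the 8 genes called on day 2, between genotypes on days 0 and 2 and in the difference of the day 2 effects were 0 in all 5 comparisons and stayed 0 (0 to 0) when each replicate was left out. With array quality weights, in a fit for which no share of all probe sets was counted, 4 were called in WT mice on day 2 and 2 between genotypes on day 0. That fit gave WT day 0 replicate 1 a weight of 16.6 against 0.207 to 3.83 for the others, and its weights did not fully converge. The median day 7 difference was 1.12 in WT mice, 4.38 in CD4cre mice, 2.37 between genotypes and 2.53 for the difference of effects. Leaving out each replicate gave 0.996 to 1.18, 3.77 to 4.91, 2.06 to 2.74 and 1.90 to 2.92. With the Hox position score as a covariate the WT median was 1.46. A background at the 99th percentile would be 4.26. Directions turned only in the 5 comparisons of days 0 and 2. None of the 8 genes passed in these, so a turn could only be of a difference that passed no test. In the main fit Saa1 and Lcn2 in WT mice on day 2 were at 0.71 and 0.74. The Hox position score did not overlap between WT days 0 and 2, or between genotypes on day 2. Values with it as a covariate are extrapolations there. With the Hox position score as a covariate, Saa1, Saa2, Lcn2 and Cp in WT mice on day 2 were at -0.48, -0.41, -0.37 and -0.19, Lcn2 in CD4cre mice on day 2 at -0.16 and between genotypes on day 0 at -0.18, and between genotypes on day 2 Cp was at 0.22, Hp at 0.36, Lcn2 at 0.033 and Saa3 at -0.29. The difference of day 2 effects was then 0.19 for Saa1, 0.082 for Saa2 and 0.21 for Lcn2. With Hoxb13 minus Hoxd10, a covariate added after seeing the data, Saa1 and Saa2 in WT mice on day 2 were at -0.048 and -0.091, Lcn2 in CD4cre mice on day 2 at -0.17 and between genotypes on day 0 at -0.21, and Hp between genotypes on day 2 at 0.079. With array quality weights Hp, Saa1 and Saa2 between genotypes on day 0 were at 0.16, 0.080 and 0.14, and the difference of day 2 effects was -0.17 for Cp and -0.19 for Hp. Saa1 in CD4cre mice on day 2 was at 0.029 by its other probe set. Without the samples with pancreatic transcripts Serpina3n, Lrg1 and Hp between genotypes on day 2 were at 0.12, 0.0088 and 0.036, Hp in CD4cre mice on day 2 at 0.054 and the difference of day 2 effects for Lrg1 at 0.054. Leaving out each replicate gave ranges that cross 0 in CD4cre mice on day 2 for Saa1 (-0.28 to 0.093), Saa2 (-0.34 to 0.054) and Saa3 (-0.61 to 0.94), between genotypes on day 0 for Lcn2 (-0.12 to 0.25), Lrg1 (-0.22 to 0.11) and Cp (-0.51 to 0.055), between genotypes on day 2 for Hp (-0.26 to 0.090), Saa3 (-0.10 to 1.38) and Lrg1 (-0.48 to 0.0020, the highest without WT day 2 replicate 2), and in the difference of day 2 effects for Hp (-0.0089 to 0.40), Lrg1 (-0.43 to 0.053) and Cp (-0.25 to 0.31). The cause was not tested. Of 40 pairs of samples with the same replicate number in different groups, 15 had a correlation over 0.1 of their deviations from group means (range -0.46 to 0.51). Pairs with unlike numbers were not looked at, so whether replicate numbers pair the samples is not settled. With a replicate block, the 5 counts of called genes were 0 and the day 7 medians 1.14, 4.38, 2.27 and 2.55.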
